A study of Mus musculus with 4 samples.

Results

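The genes described here encode the actin, tropomyosin, tropomodulin and leiomodin of the muscle thin filament, with the alpha-actinins that anchor it. They are the 10 genes Acta1, Actc1, Actn2, Actn3, Tpm1, Tpm2, Tpm3, Tmod1, Tmod4 and Lmod2, of 15102 genes tested. Each was read from the probe sets that carry its symbol alone, 20 in all, and its value is that of the probe set with the highest mean over the 4 arrays. All 10 were found and all passed the filter on dim probe sets, which removed those with a mean log2 value below 0.45.

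Expression was measured on Affymetrix arrays in a fast muscle of the shin, the tibialis cranialis, taken from 8 male C57Bl/6 mice aged 22 weeks. Regular chow was replaced by a high fat diet when the mice were 8 weeks old. After 4 weeks of this diet AAV8 ProMyo went into 1 leg and saline into the opposite leg, and both muscles were collected 10 weeks later. ProMyo stands for the myostatin propeptide, a part of the precursor that holds this inhibitor of muscle growth inactive, and AAV8 is an adeno-associated virus that carries its gene into muscle. RNA of animals 1-4 and of animals 5-8 was pooled in equal amounts, so each group had 2 arrays (ProMyo 1-4, ProMyo 5-8, saline 1-4 and saline 5-8), and both groups came from the same animals. All groups shared the diet, and the control leg had no empty vector, so myostatin inhibition and the vector cannot be told apart. The promoter of the vector is not given in the labels. The replicates are pools of animals. The p-values of limma, the test used below, rest on the spread between pools, drawn towards a spread shared by all genes.

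In the sarcomere, actin polymerises into thin filaments along which tropomyosin lies and blocks myosin until calcium reaches the troponins. Alpha-actinin crosslinks the filaments at the Z-disc, tropomodulin caps their free pointed ends, and leiomodin promotes their elongation. Adult skeletal muscle mainly uses skeletal alpha-actin (Acta1), whereas cardiac alpha-actin (Actc1) is the actin of the heart and of embryonic and regenerating skeletal muscle.

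The promoters of both sarcomeric actin genes are shown because the balance between these genes is followed through the results. They are RefSeq windows of 300 bases in build GRCm38.p6, from 250 bases before to 50 bases after the annotated start, written 5′ to 3′ along the gene. The Acta1 window is chr8:123894726-123895025 on the minus strand and the Actc1 window is chr2:114052826-114053125 on the minus strand. Capitals mark the CArG box, the site read by serum response factor.
Acta1 promoter: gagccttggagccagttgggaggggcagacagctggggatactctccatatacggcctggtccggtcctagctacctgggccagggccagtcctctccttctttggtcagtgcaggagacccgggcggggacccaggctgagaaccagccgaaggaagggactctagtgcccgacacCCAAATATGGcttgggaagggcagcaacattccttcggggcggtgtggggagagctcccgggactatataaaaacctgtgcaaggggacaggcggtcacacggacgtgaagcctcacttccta
Actc1 promoter: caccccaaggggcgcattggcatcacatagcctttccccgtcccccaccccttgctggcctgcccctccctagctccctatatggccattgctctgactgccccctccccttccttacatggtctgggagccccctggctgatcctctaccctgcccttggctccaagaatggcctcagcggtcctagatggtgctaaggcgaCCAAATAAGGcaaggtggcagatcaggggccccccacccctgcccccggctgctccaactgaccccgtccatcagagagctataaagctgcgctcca
The CArG box began 73 bases before the annotated start in Acta1 and 47 bases before it in Actc1. Whether transcription begins at these annotated starts was not tested, so the distances are not compared between both genes. Of the 10 windows matched for 9 of these genes, those 2 held a CArG box on either strand, and 1.63% of all 32851 windows did. The TATA motif TATAAA was found in the same 2 windows, against 13.6% of all windows. It began 7 bases before the start in Acta1 and 33 bases after it in Actc1. The MCAT motif CATTCC was present in the windows of Acta1, Tpm1 and Tmod1, against 14.7% of all windows. The E-box CANNTG occurred in 9 of the 10 windows, against 72.3% of all, and the MEF2 site in none, against 0.557%. Both strands were searched, and none of the matches in these windows overlapped another. A match is a description of the letters only.

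The members split into Actc1 and the rest. Actc1, cardiac alpha-actin, was 2.46-fold higher in ProMyo than in saline muscle, with every ProMyo array above every saline array. The other 9 genes differed by -0.06 to 0.21 on the log2 scale. No member passed the test over all genes (limma, adjusted p from 0.82 to 0.98). Across all genes 0% passed: 0 of 15102 had a limma adjusted p under 0.05, with 874 at an unadjusted p under 0.05. A limma fit with the pools of animals as a block called 0 genes too, and 1039 had an unadjusted p under 0.05.

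**Figure D1:**
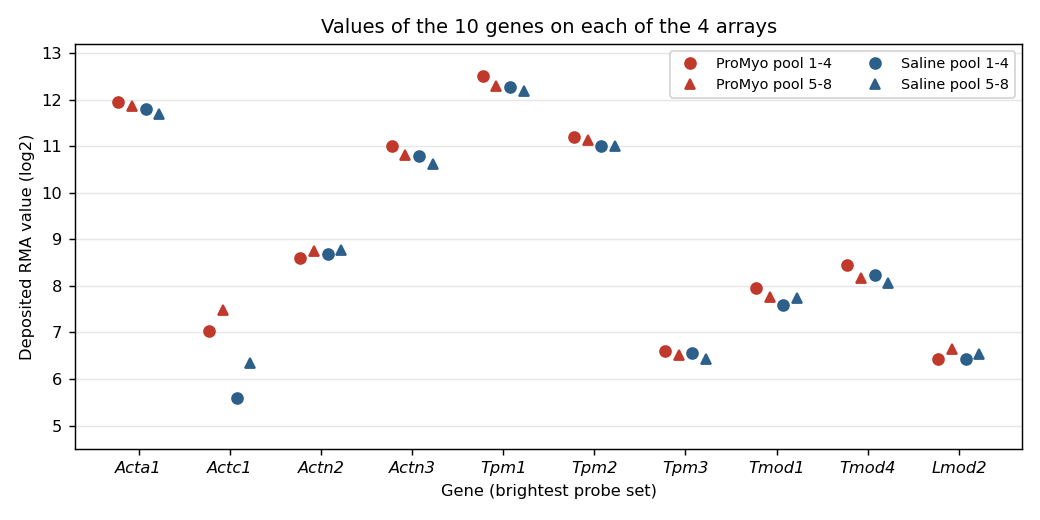
Deposited log2 values (vertical axis) of the brightest probe set of each of the 10 genes (horizontal axis) on the 4 arrays; colour marks the group and symbol the pool of animals. Both ProMyo points of Actc1 lie above both saline points by a wide gap (7.02 and 7.49 against 5.58 and 6.34), while the points of the other genes lie close together.

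Actc1 was read by 1 probe set. Its log2 values were 7.02 on ProMyo 1-4, 7.49 on ProMyo 5-8, 5.58 on saline 1-4 and 6.34 on saline 5-8. The ProMyo arrays were both high and the groups did not overlap. Within each group the pool of animals 5-8 was the higher one. Group means were 7.26 ± 0.33 in ProMyo and 5.96 ± 0.53 in saline muscle (SD, n = 2 pools). The difference was 1.30 ± 0.31 (log2 ± SE; 95% interval 0.50 to 2.10, not adjusted for the number of genes; limma, unadjusted p = 0.0085, adjusted p = 0.82). Within the pools it was 1.44 in animals 1-4 and 1.15 in animals 5-8. With the pools as a block its standard error was 0.17 and the adjusted p 0.68 (limma). Actc1 was the 1 member at least 1.5-fold apart in both pools, against 1.03% of all genes with ProMyo higher and 0.563% with saline higher (0.814% and 0.741% after quantile normalization). It was also the 1 member with an unadjusted p under 0.05 in limma, which 3.07% of all genes had with ProMyo higher. The size of its difference stood at the 99.94th percentile of all genes, and those of the other 9 between the 16.8th and the 59.6th.

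Acta1, the main actin of adult skeletal muscle, was read by 1 probe set, whose name marks it as covering alternative transcripts of 1 gene. Its values were 11.96 on ProMyo 1-4, 11.86 on ProMyo 5-8, 11.80 on saline 1-4 and 11.69 on saline 5-8. Both ProMyo arrays were again the higher ones, by a small step, and the groups did not overlap. The difference was 0.17 ± 0.16 (log2 ± SE; 95% interval -0.23 to 0.57; limma, adjusted p = 0.89), with 0.17 in both pools. The highest value of any probe set outside the array controls was 12.6, so Acta1 was read near the top of the scale. Whether signals there are compressed was not tested.

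The isoform balance was taken as Actc1 minus Acta1 on each array, and its change between groups was read, since the level of 1 probe set cannot be set against that of another. Relative to the saline mean it stood at 0.85 on ProMyo 1-4, 1.41 on ProMyo 5-8, -0.43 on saline 1-4 and 0.43 on saline 5-8. Both ProMyo arrays were shifted towards Actc1 and the groups did not overlap. The shift was 1.13 on the log2 scale, or 2.19-fold, with 1.27 in animals 1-4 and 0.98 in animals 5-8 (exact permutation test over 4 arrays, two-sided, p = 0.33, adjusted over 5 gene pairs 0.83). With 2 arrays against 2 this test cannot give a p below 0.33, so it cannot reach 0.05. It also ignores the pairing of the legs, here and for the other gene pairs. Without the saline 1-4 array the shift was 0.70, and without the saline 5-8 array 1.56.

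The other pairs of related genes gave smaller shifts, and with Actc1 against Acta1 they made up 5 pairs. Actn3 minus Actn2 was higher in ProMyo muscle by 0.27, with 0.32 in animals 1-4 and 0.22 in animals 5-8 (exact permutation test over 4 arrays, two-sided, p = 0.67, adjusted 1.0), and its groups overlapped. Tpm3 minus Tpm1 was lower by 0.10 in ProMyo muscle without overlap of the groups (exact permutation p = 0.33, adjusted 0.83), with -0.19 in animals 1-4 and -0.01 in animals 5-8. Tpm2 minus Tpm1 and Tmod4 minus Tmod1 differed by -0.003 and -0.03, with opposite signs in the pools (exact permutation p = 1.0 for both).

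**Figure D2:**
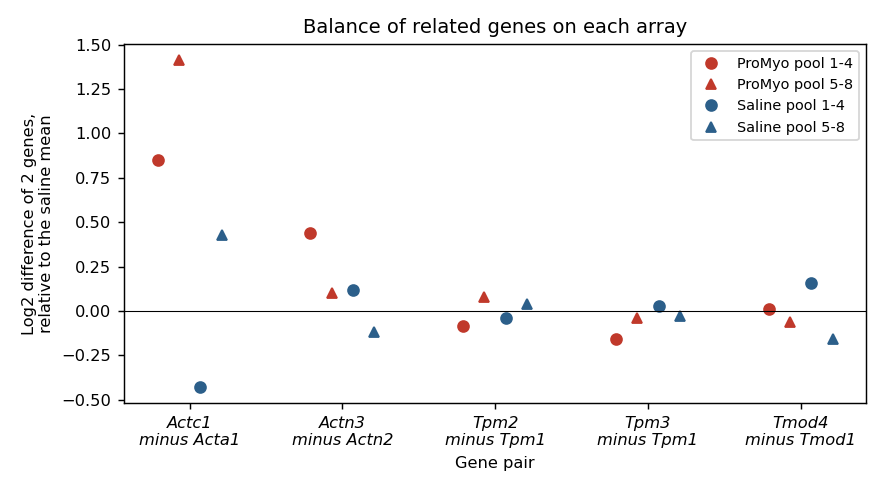
Log2 difference between 2 related genes on each array, relative to the mean of the saline arrays (vertical axis), for 5 pairs of genes (horizontal axis); colour marks the group and symbol the pool of animals. Actc1 minus Acta1 stands at 0.85 and 1.41 on the ProMyo arrays, and no other pair exceeds 0.5 on any array.

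Neither alpha-actinin passed limma's threshold, and the 95% interval of each included 0. Actn3, the alpha-actinin of fast fibres, had values of 11.01 on ProMyo 1-4, 10.82 on ProMyo 5-8, 10.79 on saline 1-4 and 10.62 on saline 5-8. Its ProMyo arrays were both above the saline arrays, by a narrow gap, and in both groups the pool of animals 1-4 was higher. The difference was 0.21 ± 0.17 (log2 ± SE; 95% interval -0.23 to 0.65; limma, adjusted p = 0.87), with 0.22 in animals 1-4 and 0.20 in animals 5-8. Actn2, the alpha-actinin present in all fibres and in the heart, had values of 8.60 on ProMyo 1-4, 8.74 on ProMyo 5-8, 8.70 on saline 1-4 and 8.77 on saline 5-8. It was the 1 member lower in ProMyo muscle in both pools, by less than the spread between arrays, and the groups overlapped. The difference was -0.06 ± 0.16 (log2 ± SE; limma, adjusted p = 0.97), and 0.01 without the ProMyo 1-4 array.

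The tropomyosins had several probe sets each, and these did not all point the same way. Tpm1, which encodes the alpha chain of striated muscle among many splice forms, had values of 12.51 on ProMyo 1-4, 12.30 on ProMyo 5-8, 12.28 on saline 1-4 and 12.20 on saline 5-8 at its brightest probe set, close to the top of the scale. These groups did not overlap, again by a narrow gap, and differed by 0.16 ± 0.17 (log2 ± SE; limma, adjusted p = 0.89). The other probe sets of Tpm1 had mean levels of 6.82, 3.64 and 2.35 and differed by -0.05, -0.21 and -0.18, the opposite direction. The dimmest of them read 2.27 on ProMyo 1-4, 2.26 on ProMyo 5-8, 2.44 on saline 1-4 and 2.45 on saline 5-8, so here both saline arrays were higher. Over its 4 probe sets the mean difference of Tpm1 was -0.07. Which splice forms each probe set reads was not tested.

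Tpm2 encodes beta-tropomyosin, the partner of the alpha chain. Its brightest probe set read 11.20 on ProMyo 1-4, 11.14 on ProMyo 5-8, 11.01 on saline 1-4 and 11.01 on saline 5-8. The ProMyo arrays were both higher, and the difference was 0.16 ± 0.15 (log2 ± SE; limma, adjusted p = 0.89). The name of this probe set marks it as sharing probes with other sequences. The other 3 probe sets differed by 0.13, 0.03 and 0.08, so all 4 of Tpm2 pointed the same way by their group means. At 1 of them, with a difference of 0.03, the groups overlapped and the pools went opposite ways.

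Tpm3 encodes the tropomyosin of slow fibres and non-muscle forms. Its brightest probe set read 6.60 on ProMyo 1-4, 6.51 on ProMyo 5-8, 6.56 on saline 1-4 and 6.43 on saline 5-8. The groups overlapped, with animals 1-4 higher in each, and the difference was 0.06 ± 0.16 (log2 ± SE; limma, adjusted p = 0.97). The other 4 probe sets of Tpm3 differed by -0.05, -0.18, 0.13 and 0.15, with both saline arrays above both ProMyo arrays at the second of these. The last of them was within the background on 2 arrays. Background here means the highest Bacillus control of the array, for which no target was expected, at 0.57 to 0.99. The other 19 probe sets of the 10 genes lay above it on all arrays.

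**Figure D3:**
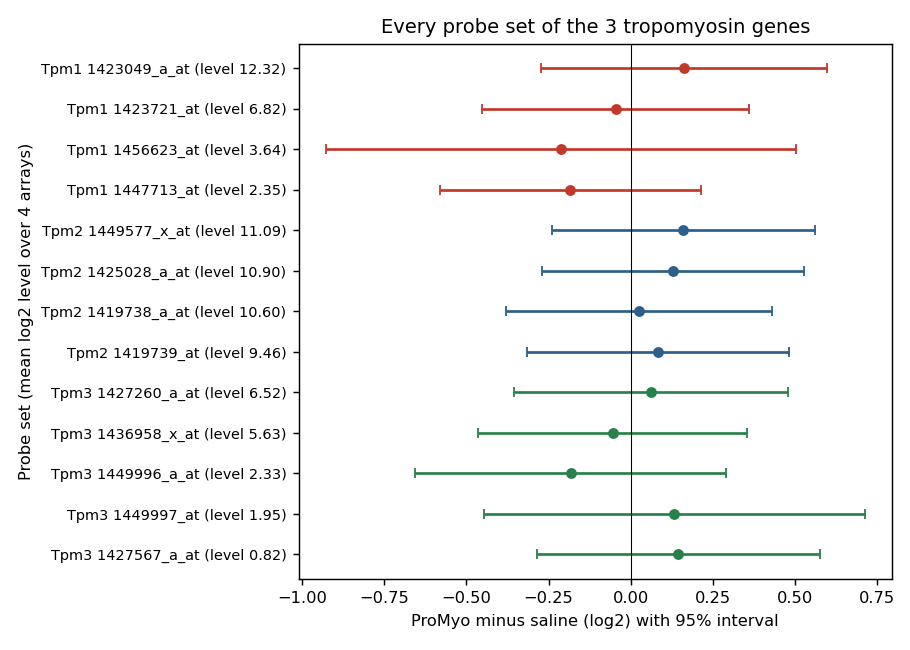
Difference between ProMyo and saline (horizontal axis, log2) with its 95% interval at every probe set of Tpm1, Tpm2 and Tpm3, from limma run on all probe sets; the mean log2 level over 4 arrays stands beside each name. Only the brightest of the 4 Tpm1 probe sets lies above 0, all 4 of Tpm2 lie above 0, and every interval includes 0.

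The filament end proteins were each read by 1 probe set. Tmod1, a tropomodulin of striated muscle and red cells, had values of 7.97 on ProMyo 1-4, 7.76 on ProMyo 5-8, 7.60 on saline 1-4 and 7.74 on saline 5-8. The groups did not overlap, but the difference lay almost entirely in animals 1-4, with 0.37 there and 0.02 in animals 5-8. Over both it was 0.20 ± 0.17 (log2 ± SE; limma, adjusted p = 0.88). Tmod4, the tropomodulin of skeletal muscle, had values of 8.45 on ProMyo 1-4, 8.17 on ProMyo 5-8, 8.23 on saline 1-4 and 8.05 on saline 5-8. Animals 1-4 were higher in both groups, and the groups overlapped. The difference was 0.17 ± 0.18 (log2 ± SE; limma, adjusted p = 0.90), with 0.22 and 0.12 in the pools. Lmod2, a leiomodin of heart and skeletal muscle, had values of 6.42 on ProMyo 1-4, 6.65 on ProMyo 5-8, 6.43 on saline 1-4 and 6.54 on saline 5-8. Its pools went opposite ways, with -0.01 in animals 1-4 and 0.10 in animals 5-8, and the difference was 0.05 ± 0.17 (log2 ± SE; limma, adjusted p = 0.98).

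**Figure D4:**
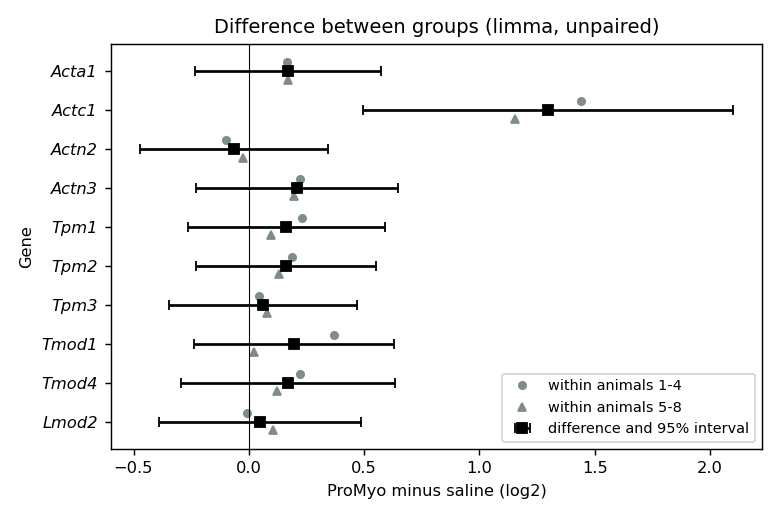
Difference between ProMyo and saline (horizontal axis, log2) for each of the 10 genes: squares with bars give the limma difference and its 95% interval, and grey symbols the differences within animals 1-4 and animals 5-8. The interval of Actc1 runs from 0.50 to 2.10, and the intervals of the other 9 include 0.

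Counted over the list, 8 of the 10 genes stood higher with ProMyo in each pool, against 29.0% of all genes. In both pools 1 was lower, against 24.0%. The 10 genes were bright, with a mean log2 level of 9.17 on ProMyo 1-4, against 3.30 over all genes tested. With the filter at the 50th percentile the share of genes higher in both pools was 32.1%. Of the 10 fast fibre markers described below, at a mean of 11.8 on ProMyo 1-4, 9 were higher in both pools too. The count is thus not particular to this list. Groups did not overlap with ProMyo higher in 6 of the 10 (Acta1, Actc1, Actn3, Tpm1, Tpm2 and Tmod1), against 17.8% of all genes, and with saline higher in 0, against 15.7%. The median difference of the 10 genes was 0.17, beside 0.01 over all genes tested, and 0.16 without Actc1. It was 0.20 in animals 1-4 and 0.11 in animals 5-8. After quantile normalization 6 of the 10 were higher in both pools, against 25.1% of all genes, and the median was 0.12. Without the ProMyo 1-4 array the median was 0.10. For the 9 genes other than Actc1 the 95% intervals of the main limma fit reached from -0.47 at the lowest to 0.65 at the highest. Differences inside these bounds could not be resolved by that fit, which had no variance trend. With a variance trend the standard errors of all 10 genes were smaller. They fell from 0.1583 to 0.0646 for Acta1, from 0.153 to 0.0596 for Tpm2 and from 0.172 to 0.0934 for Actn3. For Lmod2 the fall was smaller, from 0.1715 to 0.142. No member passed limma's threshold with the trend either.

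**Figure D5:**
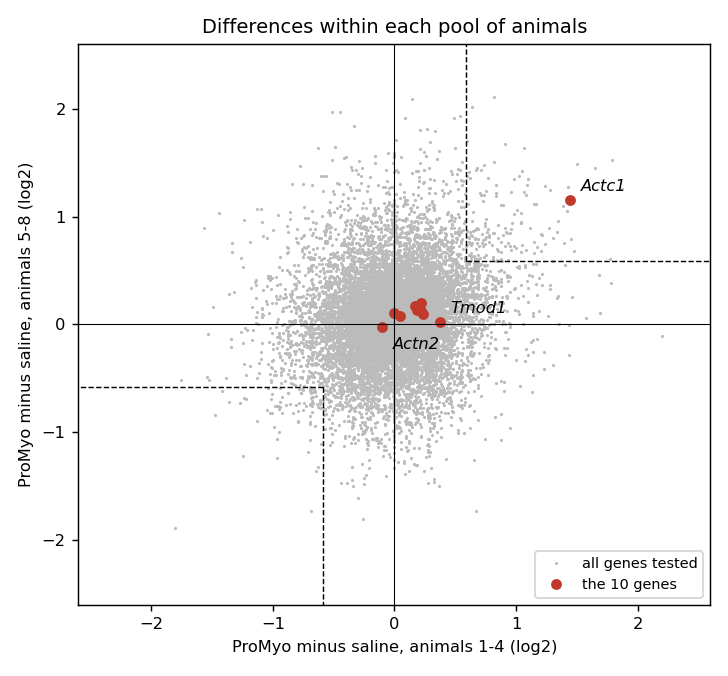
Differences between ProMyo and saline within animals 1-4 (horizontal axis, log2) and within animals 5-8 (vertical axis, log2), for the 10 genes (red) and all genes tested (grey); dashed lines mark 1.5-fold in both pools. Actc1 lies at 1.44 and 1.15 inside the upper dashed corner, and the other 9 genes lie near the middle of the cloud.

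Related genes were taken from lists of other thin filament proteins, of factors that act on actin genes and of developmental muscle genes, 63 outside the 10, of which 60 were measured. In both pools 18 of the 60 were higher in ProMyo muscle and 14 lower, shares near the 29.0% and 24.0% of all genes. None of the 60 passed limma's threshold over all genes, and their median difference was 0.01. Counts of genes higher or lower in both pools in the lists below are to be read against the same 29.0% and 24.0%. The non-muscle and smooth muscle relatives, 7 genes, had a median of -0.03. Actb and Actg1, the cytoplasmic actins, differed by -0.01 and 0.14. Acta2, the smooth muscle actin, read 5.86 on ProMyo 1-4, 6.28 on ProMyo 5-8, 6.63 on saline 1-4 and 6.44 on saline 5-8. So Acta2 was lower on both ProMyo arrays, by 0.46 ± 0.21 on the log2 scale (limma, adjusted p = 0.83). Whether this probe set also reads other actins was not tested, and the other probe sets of Acta2 were within the background on all arrays. Actn1, a non-muscle alpha-actinin, was likewise lower, with a difference of -0.58 ± 0.23 (log2 ± SE; limma, adjusted p = 0.82), which was -0.90 in animals 1-4 and -0.26 in animals 5-8.

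Of 24 measured genes of thin filament assembly, 7 were higher and 5 lower in both pools, with a median difference of 0.03. Tmod3, the broadly expressed tropomodulin, read 4.73 on ProMyo 1-4, 5.04 on ProMyo 5-8, 4.37 on saline 1-4 and 4.35 on saline 5-8. Its ProMyo arrays were both higher, with a difference of 0.53 ± 0.18 (log2 ± SE; limma, adjusted p = 0.82). A second, dim probe set of Tmod3 differed by -0.52, so the probe sets disagreed. Neb, the giant protein along the thin filament, and Lmod3, the main leiomodin of skeletal muscle, differed by 0.08 and -0.03. Cap1, a cyclase-associated protein that binds actin monomers, differed by -0.47 but lay within the background on 3 of the 4 arrays. Of 7 measured troponins, 4 were higher and 2 lower in both pools, with a median of 0.10. Tnnt3, Tnni2 and Tnnc2, the fast troponins, differed by 0.15, 0.13 and 0.10, and Tnnc1, the slow troponin C, by -0.24 ± 0.16 (log2 ± SE; limma, adjusted p = 0.85). Tnnt2, the cardiac troponin T, differed by 0.37 in animals 1-4 and -1.5 in animals 5-8, with 1 array within the background.

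Among 10 factors that act on actin genes, 3 were higher and 1 lower in both pools, with a median of 0.01. Srf, the factor that binds CArG boxes, read 4.31 on ProMyo 1-4, 4.20 on ProMyo 5-8, 4.53 on saline 1-4 and 4.40 on saline 5-8. Srf was lower on both ProMyo arrays, by 0.21 ± 0.16 on the log2 scale (limma, adjusted p = 0.86), and its second probe set differed by -0.67. Myocd, a coactivator of serum response factor, differed by 0.57 ± 0.37 (log2 ± SE; limma, adjusted p = 0.85). Mrtfa and Mrtfb, the coactivators that sense free actin, differed by 0.07 and -0.01, and Abra, which promotes their entry into the nucleus, by 0.01.

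Developmental muscle genes were set beside Actc1 because it is expressed in embryonic and regenerating fibres. Of 13 measured, 3 were within the background on at least 1 array, 1 of these on all, and 3 were higher and 4 lower in both pools, and the median difference was -0.22, with -0.21 in animals 1-4 and 0.07 in animals 5-8. Myh3 and Myh8, the embryonic and perinatal myosins, differed by -0.40 and 0.16, Myog (myogenin), within the background on some arrays, by -0.12 and Chrng, the fetal acetylcholine receptor subunit, by -0.01. Myl4, the embryonic and atrial light chain, differed by -0.43 ± 0.28 and Ckb, the brain form of creatine kinase, by -0.36 ± 0.16 (log2 ± SE; limma, adjusted p = 0.85 and 0.83). Ncam1, a cell adhesion molecule of developing and denervated fibres, read 5.29 on ProMyo 1-4, 5.91 on ProMyo 5-8, 4.31 on saline 1-4 and 4.89 on saline 5-8. It was the 1 gene of all 60 that was at least 1.5-fold apart in both pools, against 1.03% of all genes with ProMyo higher and 0.563% with saline higher, a share near that background. Its difference was 1.00 ± 0.30 (log2 ± SE; limma, adjusted p = 0.82). The 3 other probe sets of Ncam1 that were above the background on all arrays were dimmer. Their mean levels were 2.88, 1.10 and 0.99, against 5.10 at the brightest. They differed by -0.56, -0.62 and -0.32, so the probe sets of Ncam1 disagreed.

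Markers of fibre types and of other cells were set beside these values. The 10 fast fibre markers were all above the background on every array. So were the slow fibre markers other than Tnni1, so this does not separate the fibre types. Of the fast markers, 9 stood higher with ProMyo in each pool, against 29.0% of all genes. Their summed log2 level was 118 on both ProMyo arrays and 116 to 117 on the saline arrays, with a median difference of 0.12. Mylpf, the fast regulatory light chain, and Casq1, the fast calsequestrin, differed by 0.21 each. Of 8 slow fibre markers, 4 were lower and 1 higher in both pools, against 24.0% and 29.0% of all genes. Their median difference was -0.20, and their summed log2 level was 29.5 to 30.9 in ProMyo and 32.1 to 33.5 in saline muscle. Myl2, the slow regulatory light chain, read 3.43 on ProMyo 1-4, 1.95 on ProMyo 5-8, 5.23 on saline 1-4 and 3.84 on saline 5-8. Myl2 differed by -1.85 ± 0.65 and Myl3 by -0.35 ± 0.19 (log2 ± SE; limma, adjusted p = 0.82 and 0.83). The difference of Myl2 was the largest of the 8, and much of the gap in the summed level lay in this gene. Tnni1, the 1 higher in both pools, differed by 0.14 and was within the background on some arrays. In Casq2, Myh7 and Atp2a2 the pools went opposite ways, with differences of 0.23, -0.16 and -0.06. In such bulk RNA, fewer cells of a type and less RNA per cell cannot be told apart. The part of fibre type in the values of the 10 genes was not tested.

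Heart muscle markers bore on Actc1. Of 7, 5 were measured, 3 of these were within the background on some arrays, 2 were higher and 2 lower in both pools, and the summed log2 level was 8.20 to 10.3 in ProMyo and 9.41 to 10.1 in saline muscle. Myh6, the atrial myosin, and Nppa, the atrial natriuretic peptide, reached at most 0.93 and 0.98 on any array. Nppb reached at most 1.175, with a difference of 0.21 and ProMyo higher in both pools. Myl4, also in this list, was well above the background, at 4.98 to 5.90, and was lower in both pools. Smooth muscle markers, 7 genes, had a summed level of 20.8 to 22.4 in ProMyo and 19.95 to 21.6 in saline muscle, with 2 higher and 1 lower in both pools. Tagln (transgelin) differed by 0.78 ± 0.27 (log2 ± SE; limma, adjusted p = 0.82), against the direction of Acta2. Tagln was at least 1.5-fold apart in both pools, as 1.03% of all genes were with ProMyo higher. Of the other markers, Myl2 and Col1a2 passed this limit with saline higher, against 0.563% of all genes. Actg2 was within the background on all arrays. The 6 fibroblast markers had a summed level of 40.4 to 40.9 in ProMyo and 41.5 to 41.9 in saline muscle, 4 of them lower in both pools. Among them Col1a2 and Col1a1 of type I collagen stood at -0.78 and -0.68. Lum (lumican) was higher in both pools without overlap of the groups, by 0.63, and Dcn (decorin) differed by 0.03. The 4 endothelial markers had a summed level of 15.4 on both ProMyo arrays and 14.8 to 15.3 on the saline arrays, 2 of them higher in both pools, with Cdh5 at 0.18 and Kdr at 0.13. The 4 macrophage markers had 13.7 to 13.8 and 13.3 to 14.7, 2 of them lower and 1 higher in both pools, with Adgre1 at -0.31 and Cd163 at 0.37. The part of these cells in the values of the 10 genes was not tested.

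The 5 named genes whose 4 array values, each minus its own mean, lay nearest to those of Actc1 were Myb, Rad54l, Zfp982, Foxc1 and Vmn2r84. Their root mean square distances to Actc1 were 0.11 to 0.14 on the log2 scale, over 4 arrays, and they were picked from all genes tested by this measure, which carries no test. Rad54l was within the background on some arrays. Besides the brightest probe sets, 1 of Zfp982 was above the background on all arrays, and it differed by 0.29 where the brightest differed by 1.49.

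The arrays differed little in general level, with medians of 1.06 to 1.11. The saline 5-8 array stood apart, with an upper quartile of 2.97 against 3.15 to 3.20 and hybridization controls averaging 11.1 against 10.1 to 10.2. Without it Actc1 differed by 1.67, and without the saline 1-4 array by 0.92. The log2 excess of 3' over 5' control probe sets, which grows with RNA breakdown, was 0.58 and 0.74 for Gapdh on the ProMyo arrays and 0.90 and 0.81 on the saline arrays. For Actb, itself an actin, it was 1.64 and 1.72 against 1.96 and 1.80. By either gene the ProMyo arrays had the smaller excess, and the part of this in the values of the 10 genes was not tested.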

How the data were processed

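The deposited values were log2 signals for each probe set. Per the submitters' processing notes they come from RMA, run in Expression Console of Affymetrix, with no version named in these notes. The log base is not stated and was taken as log2 from the range of -0.45 to 13.2, so folds hold on that scale. Array medians near 1 are low for RMA, and a further background or scale step was not tested. Of 45101 probe sets, 64 were array controls and were left out, 34945 carried 1 gene symbol in the probe table, 932 more than 1, and 9160 were unnamed. By gene identifier 34741 matched a RefSeq table (GRCm38.p6), and 0 symbols changed. The dimmest probe sets (mean under the 25th percentile) were dropped, leaving 15102 genes at 1 brightest probe set each.

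Both groups were compared in limma 3.58.1 (R 4.3.3; lmFit, eBayes without trend, Benjamini-Hochberg over all genes, threshold 0.05), with 2 residual and 3.17 prior degrees of freedom. On simulated data with the spreads shuffled across genes and no pairing of pools, this fit missed nearly all changes of 1.5-fold and 2-fold. Larger changes were recovered more often. How the fit fares for bright genes such as these was not tested. Both legs came from the same mice, so the pools were paired by design. Deviations of same-numbered pools correlated with r = 0.16 across genes. Precision is limited by the number of arrays. The members, lists and alternatives were chosen with earlier results of these data known. Named genes were all members, the listed genes at least 1.5-fold apart in both pools with the 2 smallest p of each list, and the 5 nearest to Actc1, predicted genes aside; other listed genes were named for their role after their values were seen. Alternatives were the pool as a block, other filters, a variance trend, 2 scalings, other probe set choices, a lower fold limit and leaving out each array. A run on every probe set was added after the data were seen. Promoter windows were RefSeq's.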

Additional observations from a re-analysis of the deposited data

How the results depend on the processing

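Actc1 and its balance against Acta1 kept their direction under every alternative run, though with 1 probe set each only the 2 scalings and the left-out arrays could move their values; Actc1 missed limma's threshold in each (adjusted p from 0.47 to 1.0); the balance was 1.11 after quantile normalization and 0.70 to 1.56 without 1 array. No gene passed limma's threshold under any alternative, the replicate block (0 genes) and the run on every probe set included, and the block changed no call; unadjusted p under 0.05 was met by 353 to 1601 genes or probe sets. Acta1, Actn3, Tpm2, Tmod1 and Tmod4 also kept their direction. Of these, Acta1, Actn3, Tmod1 and Tmod4 had 1 probe set each, so again only the 2 scalings and the left-out arrays could move their values. The groups did not overlap for Actc1, its balance, Acta1, Actn3, Tpm2 and Tmod1. Leaving out 1 array could therefore not turn their direction. Tpm1 turned to -0.0695 as the mean of its probe sets and -0.0459 at its second brightest, and Tpm3 to -0.0545 at its second brightest; these settings read other probe sets. Lmod2 turned to -0.0248 after quantile normalization, and the cause was not tested. Without 1 array each, Lmod2 ranged from -0.0649 to 0.16, Actn2 from -0.14 to 0.0091 (without ProMyo 1-4), Tpm3 from -0.0021 (without saline 5-8) to 0.13 and the median of the members from 0.10 to 0.24. Of the listed genes outside the members, 1 of 60 (Ncam1) was at least 1.5-fold apart in both pools. With a lower limit of 0.32 on the log2 scale there were 5 (Tmod3, Myocd, Ncam1, Ckb and Chrnd, the last within the background on all arrays), against 4.81% of all genes with ProMyo higher and 3.68% with saline higher, a share near that background. With the mean of the probe sets there were 0, against 0.596% of all genes with ProMyo higher and 0.384% with saline higher. With the second brightest probe set there were 0 too, against 1.12% and 0.541%. Without ProMyo 1-4 there were 4, against 2.21% and 1.28%, and without saline 5-8 there were 3, against 1.73% and 2.3%. Without saline 1-4 there were 0, against 4.53% and 2.72%, and without ProMyo 5-8 there was 1, Actn1, against 1.68% and 1.11%. The members higher in both pools numbered 6 with the mean of the probe sets, with the second brightest and without saline 5-8. With an array left out, the other leg of its pool was set against the remaining array of the other pool, so these counts compare across pools. A fit without 1 array assumes that the lone array of its group varies like the other group. With 2 arrays per group, a missed threshold says little about any member, Actc1 included.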
